A study of Schizosaccharomyces pombe 972h- with 4 samples.

Results

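Transcripts of mug114 and ppk33 were followed in fission yeast cells kept in normal oxygen or moved to hypoxia. Both genes were chosen because their transcripts stood about 2-fold or more above the normal oxygen level in hypoxic wild type (wt) cells in the normalised values the authors deposited. They are 2 of the 4997 targets on the array, and since their ratios chose them, these are given as a description. mug114 (SPAC4F8.08, chromosome I) and ppk33 (SPCC162.10, chromosome III) were found on the array through the systematic names in the gene tables of the study, and their symbols were taken from a RefSeq gene table. The strains were wt S. pombe 972 (h-) and Ofd2Δ, an h- strain in which Ofd2, a 2-oxoglutarate and iron dependent dioxygenase that acts on histone H2A, was deleted with a KAN marker. The level of Ofd2 itself was not analysed here. Both were grown at exponential phase in rich medium with glucose, and were then held for 90 min either in flasks in room air (20% oxygen) or in an AnaeroGen hypoxia system (below 1% oxygen). RNA of 2 experiments was pooled for each of the 4 conditions and hybridised to 1 array, so no difference between conditions has a replicate check, no p-values are given, and the spread between spots is technical.

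Fission yeast can live with little oxygen for a time but needs oxygen to make sterols and heme and to respire. When sterol synthesis slows in low oxygen, the membrane-bound transcription factor Sre1 is cleaved and switches on genes of sterol and heme synthesis, while transcripts of respiratory enzymes decline. The 2 genes described here have no known place in that pathway. mug114 is one of the mug (meiotically upregulated) genes, named after a survey of transcripts that rise in meiosis, and the role of its protein is not known. ppk33 encodes a serine/threonine protein kinase, an enzyme that passes on signals by phosphorylating other proteins. It was named in the ppk series, which holds fission yeast kinases found by their sequence.

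Each gene was measured by 7 probes of 60 bases, printed once in each of 2 blocks, which gives 14 spots per gene and array. The spots of mug114 were well above the 2083 control spots of random sequence, with a median scanned intensity of 2371 in wt and 1510 in the Ofd2Δ strain in normal oxygen, and of 10077 and 6458 in hypoxia. The control medians were between 112 and 126 on the 4 arrays. The spots of ppk33 were dimmer, with medians of 780 in wt and 612 in the Ofd2Δ strain in normal oxygen, and of 1327 and 806 in hypoxia. All 14 spots of both genes were brighter on every array than 95% of the control spots, and none was near saturation, the brightest being a mug114 spot of 15831 in hypoxic wt cells. Averaged over the arrays after normalisation, the level of mug114 was at percentile 29.2 of all targets and that of ppk33 at percentile 4.80. The array of the hypoxic Ofd2Δ strain came from another scan occasion than the other 3. It was dimmer, with a median gene spot of 4009 against 6597 to 7529. Strain and scan therefore cannot be told apart in hypoxia, nor can oxygen and scan in the ratios of the Ofd2Δ strain.

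Transcripts of mug114 were several fold higher in hypoxia than in normal oxygen in both strains. After background correction, quantile normalisation and median polish of the probes, its level in wt was 1607 and 1412 in the 2 blocks in normal oxygen, and 8843 and 7663 in hypoxia, in units of normalised intensity. In the Ofd2Δ strain the block levels were 1481 and 1537 in normal oxygen, and 11819 and 8879 in hypoxia. These median-polish levels of the 2 strains were thus close to each other in normal oxygen, and both hypoxia arrays were far above both normal oxygen arrays. In the deposited values the Ofd2Δ level in normal oxygen was 0.881 times that of wt. The 14 normalised spots ranged from 608 to 3030 (median 1834) in wt in normal oxygen and from 5981 to 13854 (median 8804) in hypoxia. In the Ofd2Δ strain they ranged from 495 to 2625 (median 1417) and from 6118 to 17082 (median 11263). In neither strain did the ranges of the 2 conditions overlap.

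The ratio of hypoxia over normal oxygen, taken as the mean of the 2 block ratios, was 5.46 for mug114 in wt (5.50 and 5.43 in the blocks) and 6.88 in the Ofd2Δ strain (7.98 and 5.78). On the log2 scale the single spots gave 2.503 ± 0.40 in wt and 2.95 ± 0.51 in the Ofd2Δ strain (technical SD, n = 14 spots of 1 array pair). All 14 spots were at least 2-fold higher in hypoxia in each strain. In both strains mug114 had the highest ratio of the 4997 targets. Of all targets, 8 (0.160%) stood at least 2-fold higher in hypoxia in wt and 22 (0.440%) in the Ofd2Δ strain. With median scaling 122 targets were higher and 46 lower by 2-fold in the Ofd2Δ strain, against 22 higher and 50 lower with quantile normalisation. The central 95% of all target ratios ran from 0.679 to 1.31 in wt and from 0.647 to 1.56 in the Ofd2Δ strain.

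**Figure D1:**
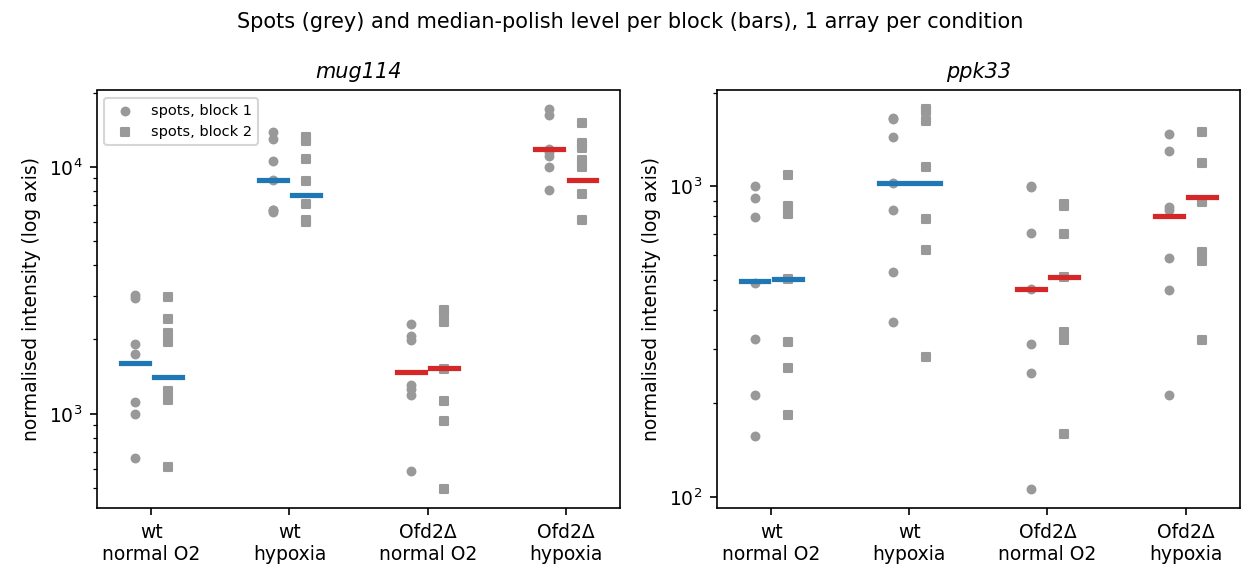
Normalised intensity (log axis) of the 14 spots of mug114 and ppk33 on each of the 4 arrays, with grey circles for block 1 and squares for block 2, and bars for the median-polish level of each block in wt (blue) and the Ofd2Δ strain (red). The spots of mug114 in hypoxia (5981 to 13854 in wt) lie above all those in normal oxygen (608 to 3030 in wt), while the spots of ppk33 overlap between the conditions.

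Transcripts of ppk33 were about 2-fold higher in hypoxia in wt. With quantile normalisation the ratio was somewhat smaller in the Ofd2Δ strain, but not with median scaling or in the deposited values. The block levels in wt were 495 and 503 in normal oxygen, and 1023 and 1029 in hypoxia. In the Ofd2Δ strain they were 468 and 510 in normal oxygen, and 801 and 922 in hypoxia. Both hypoxia arrays were therefore above both normal oxygen arrays in each block, with the Ofd2Δ hypoxia array below the wt one. Among the spots the conditions did overlap, with 158 to 1091 in wt in normal oxygen and 282 to 1768 in hypoxia, and 106 to 1002 and 212 to 1500 in the Ofd2Δ strain.

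The ratio of ppk33 was 2.06 in wt (2.07 and 2.05 in the blocks) and 1.76 in the Ofd2Δ strain (1.71 and 1.81). Over single spots the log2 ratio was 1.04 ± 0.28 in wt and 0.71 ± 0.38 in the Ofd2Δ strain (technical SD, n = 14 spots). In wt 14 of the 14 spots were higher in hypoxia and 9 were at least 2-fold higher, and in the Ofd2Δ strain 13 were higher and 3 at least 2-fold. In wt ppk33 had the lowest ratio of the 8 targets past 2-fold, and 7 targets stood above it. In the Ofd2Δ strain 51 targets stood above it, and it did not reach 2-fold. Of the 8 targets, 5 were among the 1249 with the lowest levels, ppk33 being one of them, and 3 among all others. The central 95% of the wt ratios of these 1249 targets ran from 0.557 to 1.45, wider than that of all targets.

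The wt ratio of ppk33 is close to the 2-fold limit, and the way the arrays are processed decides on which side it falls. Without background correction the ratio in wt was 1.88, with a normexp background 1.92, and with median scaling in place of quantile normalisation 1.94. In the normalised gene values that the authors deposited, the levels of ppk33 were 456 and 436 in wt and 461 and 427 in the Ofd2Δ strain in normal oxygen, and 976 and 879 in wt and 910 and 967 in the Ofd2Δ strain in hypoxia. These give ratios of 2.08 in wt and 2.12 in the Ofd2Δ strain. The choice of the gene rests on that table, in which the targets just inside the limit in wt were ght1, a hexose transporter gene, at 2.00, and imt2, a mannosyltransferase gene of sphingolipid synthesis, at 2.01. The nearest target below it stood at 1.89. Among these deposited values 25 targets (0.500%) passed 2-fold in each strain, and ppk33 had the rank 17 in wt and 16 in the Ofd2Δ strain.

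For mug114 the deposited values were 1354 and 1575 in wt and 1217 and 1358 in the Ofd2Δ strain in normal oxygen, and 7158 and 7375 in wt and 7392 and 7237 in the Ofd2Δ strain in hypoxia. The ratios from them were 4.98 in wt and 5.70 in the Ofd2Δ strain, again the highest of all targets in both strains. Under all 8 other ways of processing that were run over all targets, mug114 kept the first rank in each strain, with ratios from 4.98 to 5.50 in wt and from 5.70 to 7.98 in the Ofd2Δ strain. Even the scanned intensities, with no step of processing, gave a median spot ratio of 4.87 in wt and of 4.05 in the Ofd2Δ strain, whose hypoxia array was the dim one. For ppk33 the median ratio of the scanned spots was 1.62 in wt and 1.32 in the Ofd2Δ strain.

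**Figure D2:**
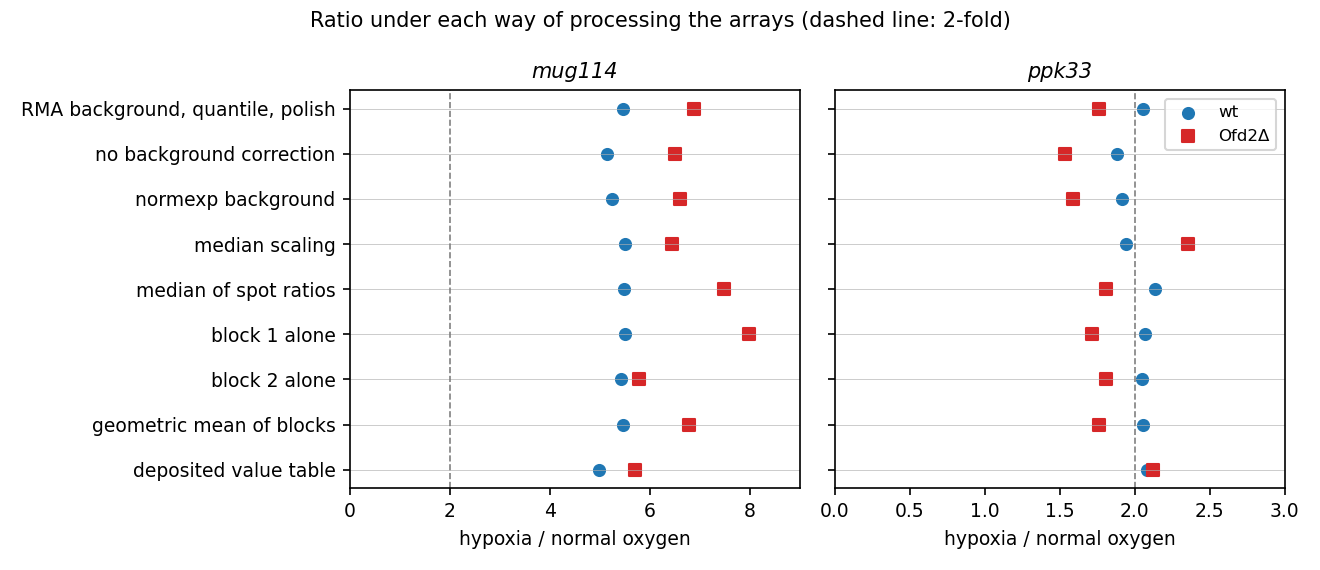
Ratio of hypoxia over normal oxygen (linear axis) of mug114 and ppk33 in wt (blue circles) and the Ofd2Δ strain (red squares) under 9 ways of processing the arrays, with a dashed line at 2-fold. The ratio of mug114 stays at 4.98 or above throughout, whereas that of ppk33 in wt lies between 1.88 and 2.13 and crosses the line.

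The probes of a gene are separate measurements along its transcript, and each of them was compared between the conditions. Probe positions are counted in bases from the start of the target as the files give them, and levels of different probes are not set against each other. For mug114, the 7 probes cover 3 stretches without overlap, at bases 173 to 232, 273 to 347 and 373 to 448, so that probes within a stretch share most of their sequence. The probe at base 173 had the highest ratio, 10.1 in wt and 13.1 in the Ofd2Δ strain. Its scanned intensity was on average 945 in wt and 661 in the Ofd2Δ strain in normal oxygen, and 7319 and 4490 in hypoxia. The 4 overlapping probes of the middle stretch had ratios from 4.35 to 5.51 in wt and from 5.43 to 8.12 in the Ofd2Δ strain. At the 2 probes of the far end the ratios were 5.97 and 5.78 in wt, and 11.02 and 7.08 in the Ofd2Δ strain. The difference was thus present in each of the 3 stretches and exceeded 4-fold at every probe in both strains.

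For ppk33, the 7 probes cover 6 stretches between bases 128 and 881. All 7 had a ratio over 1 in both strains, and 4 reached 2-fold in wt and 1 in the Ofd2Δ strain. In wt the ratio was 2.54 at base 128 and 2.44 at base 213, 1.93 at base 240, 2.20 at base 365, 1.85 at base 471, 1.52 at base 564 and 2.12 at base 822. The lowest ratio was thus that of the probe at base 564, and the probe nearest the far end was again above 2-fold. In the Ofd2Δ strain the ratios ran from 1.43, at bases 471 and 564, to 2.01 at base 240. The blocks of 1 probe differed most at base 822 in the Ofd2Δ strain, with ratios of 0.862 and 2.14, and at base 471, with 1.84 and 1.02. In wt the blocks differed most at base 240, with 2.33 and 1.53 and scanned intensities of 376 and 405 in normal oxygen.

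**Figure D3:**
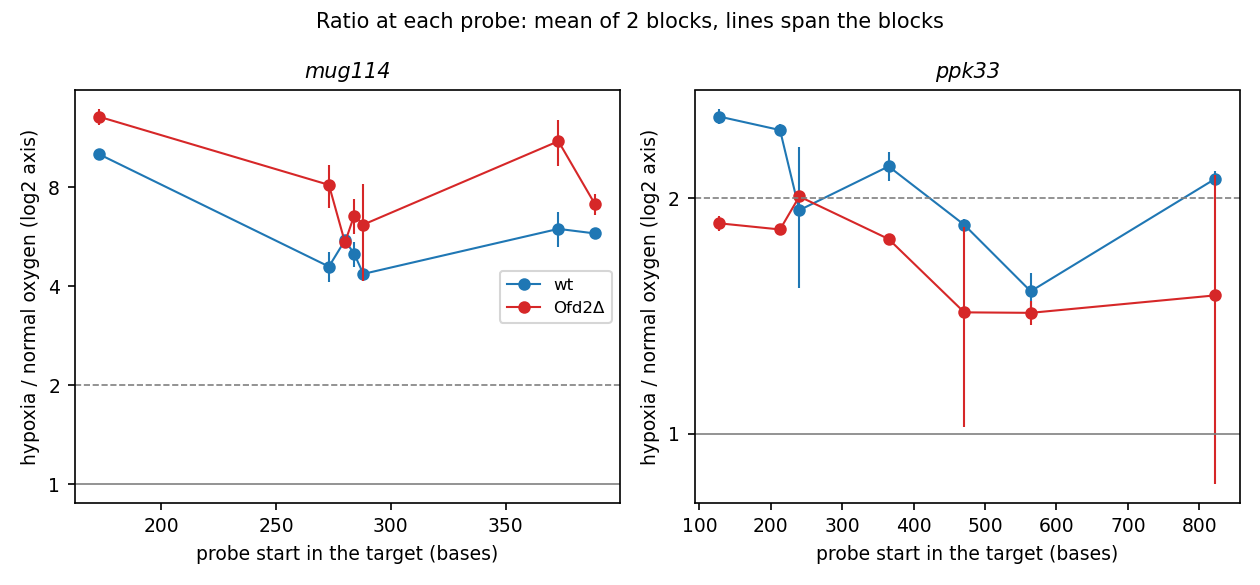
Ratio of hypoxia over normal oxygen (log2 axis) at each probe of mug114 and ppk33 against the start of the probe in the target (bases), as the mean of 2 blocks, with vertical lines that span the blocks, in wt (blue) and the Ofd2Δ strain (red). All probes of mug114 lie above 4, and those of ppk33 lie between 1.43 and 2.54.

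The study asked which hypoxic changes depend on Ofd2. Among genes changed 2-fold or more, it called those different between the strains whose ratios differed by more than 1.5-fold. It found all of its induced genes within that limit. Relative to wt, the hypoxia ratio in the Ofd2Δ strain was 1.26 times as large for mug114 and 0.857 times for ppk33, and neither value reached that limit. For mug114 it was 1.45 times in block 1 and 1.06 times in block 2, and it passed the limit, at 1.504 times, when the probe at base 280 was left out. Here the limit was applied to all targets, and not only to genes changed 2-fold. By the limit, 99 of all targets (1.98%) had the higher ratio in the Ofd2Δ strain, and 36 (0.720%) the lower one. These were 53 (1.06%) and 27 (0.540%) in the deposited values. At 6 of the 7 probes of mug114 the Ofd2Δ ratio was the higher one, and at 1 of the 7 probes of ppk33. From the deposited values the ratio in the Ofd2Δ strain was 1.14 times as large as in wt for mug114 and 1.02 times for ppk33. With median scaling that of ppk33 was 1.21 times the wt ratio, so its direction was not settled.

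Levels in the 2 strains were also compared directly, a comparison that was not used to choose the genes. In normal oxygen, the Ofd2Δ level was 1.01 times the wt level for mug114 (0.922 and 1.09 in the blocks), with 6 of the 14 spots higher in the Ofd2Δ strain. For ppk33 it was 0.979 times the wt level (0.944 and 1.01), with 7 of the 14 spots higher. In both genes the 2 blocks lay on opposite sides of equality, so the difference between the strains was smaller than the spread between blocks. In hypoxia the Ofd2Δ level of mug114 was 1.25 times that of wt (1.34 and 1.16, 12 of 14 spots higher), and that of ppk33 0.840 times (0.783 and 0.897, 2 of 14 spots higher). The central 95% of this ratio among all targets ran from 0.764 to 1.42, so both values lie within it. From the deposited values these levels were 1.01 times that of wt in hypoxia for mug114 and 1.02 times for ppk33, and 0.881 and 0.995 times in normal oxygen. The 0.881 of mug114 came from 2 values below that of wt, 0.899 and 0.862, unlike the blocks of the probe files.

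**Figure D4:**
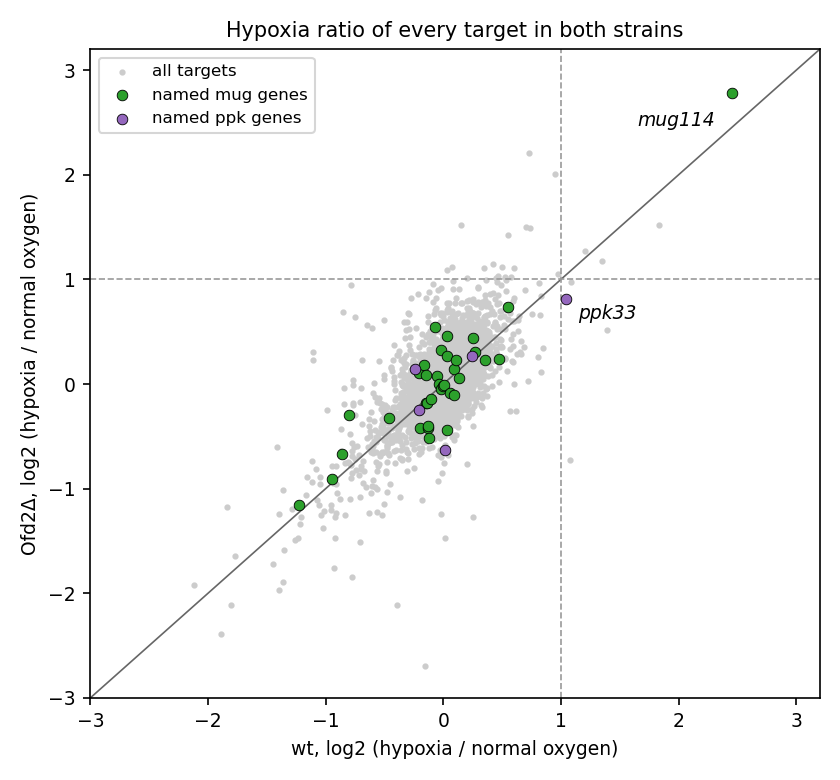
Log2 ratio of hypoxia over normal oxygen in wt (x axis) and the Ofd2Δ strain (y axis) for all 4997 targets (grey), the 36 named mug genes (green) and the 5 named ppk genes (purple), with a line of equality and dashed lines at 2-fold. mug114, at 2.45 and 2.78, lies apart from the other mug genes, and ppk33 at 1.04 and 0.82.

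The other named genes of the mug series showed no such difference, as was so for nearly all targets. Of the 91 mug genes known to RefSeq, 36 carry a name on the array. Of these, mug114, chosen for its rise, was the only one at least 2-fold higher in hypoxia in either strain. That no other passed is near the share of all targets, 0.160% in wt and 0.440% in the Ofd2Δ strain. Without mug114, the median of the other 35 was 0.974 in wt and 0.993 in the Ofd2Δ strain, against 1.02 and 1.02 for all targets. Their highest ratio in wt was that of mug163, 1.47 (1.66 in the Ofd2Δ strain), followed by mug184 with 1.39 and 1.18. The lowest were those of mug37, 0.427 and 0.448, and mug73, 0.519 and 0.531. Of the 35, mug37 alone was at least 2-fold lower, as were 32 of all targets (0.640%) in wt and 50 (1.00%) in the Ofd2Δ strain. In the deposited values 29 targets (0.580%) were 2-fold lower in wt and 42 (0.841%) in the Ofd2Δ strain, and of the mug genes mug37 in both strains and mug150 (0.498) in the Ofd2Δ strain. With median scaling, 3 of the 36 were past 2-fold higher in the Ofd2Δ strain and 1 in wt, against 122 and 5 of all 4997 targets. As most mug genes carry no name here, the counts cover the named ones alone.

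Genes that act in meiosis and spore formation were looked at for the same reason. The median ratio of the 7 that carry a name, out of 26, was 0.947 in wt and 1.22 in the Ofd2Δ strain, against 1.02 and 1.02 for all targets. In wt, 0 of the 7 were at least 2-fold higher, which is near the 0.160% of all targets, and in the Ofd2Δ strain 1 was, against 0.440%. This was isp4, an oligopeptide transporter gene of the sexual differentiation series, with the highest ratios of the list, 1.38 in wt and 2.05 in the Ofd2Δ strain. Next in the Ofd2Δ strain was meu10, at 1.72 (0.995 in the deposited values), against 0.940 in wt. The recombination gene rec7 had ratios of 1.29 and 1.70. The inhibitor gene mei3, whose product starts meiosis by blocking the kinase Pat1, had ratios of 0.833 and 1.22. Of the 7 genes, meu26 was the lowest, with 0.269 and 0.191. The levels of meu26, mei3, meu10 and rec11 were low, at percentiles from 3.56 to 6.44 of all targets. Over the 1249 targets of lowest level the median ratio in the Ofd2Δ strain was 1.08. In the deposited values isp4 had a ratio of 1.71 in the Ofd2Δ strain, below 2-fold.

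Other named protein kinase genes differed less between the conditions than ppk33, which was chosen for its rise. Of the 22 ppk genes known to RefSeq, 5 carry a name, and the other 4 had ratios from 0.846 to 1.19 in wt and from 0.647 to 1.21 in the Ofd2Δ strain. They were ppk31 (0.846 in wt and 1.10 in the Ofd2Δ strain), ppk32 (0.867 and 0.840), ppk27 (1.01 and 0.647) and ppk38 (1.19 and 1.21). In a list of AGC kinases, the family of protein kinases A and C in which ppk33 was entered, 7 of 17 carry a name. For the 6 other than ppk33 the median was 0.921 in wt and 0.844 in the Ofd2Δ strain, with a range from 0.846 to 0.994 in wt. Among them were pka1, the catalytic subunit of protein kinase A that answers to glucose, with 0.935 and 0.949, and gad8, the kinase downstream of TOR complex 2, with 0.960 and 0.868. Of 21 kinase genes of the MAP kinase, TOR and AMP-activated pathways 7 carry a name, and 0 of these were 2-fold higher or lower in either strain, a count near the 0.160% higher and 0.640% lower of all targets in wt and the 0.440% and 1.00% in the Ofd2Δ strain. Their ratios in wt ran from 0.787 for srk1, a kinase bound by the stress MAP kinase Sty1, to 1.09 for tor2. Of the named genes in the 3 kinase lists, ppk33, chosen for its rise, was the only one past 2-fold in wt. In the Ofd2Δ strain 0 were, against 1, ppk33 itself, in the deposited values. For the other kinase genes this is near the share of all targets, 0.160% in wt and 0.440% in the Ofd2Δ strain (0.500% in the deposited values).

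The profile of each gene over the 4 arrays was set against that of the 1646 other named targets, by the Euclidean distance between log2 levels after centring each gene on its own mean. For ppk33 the nearest was imt2, at a distance of 0.18, with levels of 3378 in wt and 3041 in the Ofd2Δ strain in normal oxygen, and of 6599 and 6309 in hypoxia. Next were SPCC4F11.05, the neighbour of imt2 in the gene order, at 0.22, and wtf11, a member of the wtf family, which includes spore killer genes, at 0.23. The hypoxia ratios of these 3 genes were 1.97, 2.12 and 1.76 in wt, and 2.07, 1.97 and 1.96 in the Ofd2Δ strain. No named gene had a profile as near to that of mug114. The nearest was ght1, at 1.19, with ratios of 1.93 in wt and 4.01 in the Ofd2Δ strain (2.00 and 2.18 in the deposited values), and SPCC1739.08c and SPBPB2B2.06c followed at 1.30 and 1.31. With 4 arrays the measure mostly reflects the size of the hypoxia ratio in the 2 strains.

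The study lists 25 genes as induced by hypoxia in 1 or both strains, and 19 of them carry its mark for genes already known to respond to low oxygen. mug114 and ppk33 are among the 6 without the mark, together with SPBPB2B2.06c, ght5, imt2 and ght1. These genes were chosen on the same arrays, so their direction is no independent evidence. From the probe files, 4 of the 6 were at least 2-fold higher in wt and 5 in the Ofd2Δ strain, and in the deposited values, on which they were chosen, 6 were in each strain. Of the 19 marked genes, 1 was past 2-fold in each strain from the probe files, against 19 in wt and 18 in the Ofd2Δ strain in the deposited values. Over all targets these shares were 0.160% and 0.440% from the probe files and 0.500% in each strain in the deposited values. The marked gene erg11, of a sterol demethylase, had a wt ratio of 1.11 from the probe files and 2.17 in the deposited values, while erg31, of a sterol desaturase, had 2.55 and 2.79. The marked gene hem13 had 1.77 and 2.62. By RT-qPCR the study reported erg3 and hem13 as induced in hypoxia, with no difference between wt and Ofd2Δ strains.

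Neighbouring genes were examined for ppk33, as 5 of its 6 nearest protein-coding genes, 3 on each side, carry a name. Its next neighbour on one side, urk1, a uridine kinase gene whose annotated transcript overlaps that of ppk33, had ratios of 0.997 in wt and 1.19 in the Ofd2Δ strain. On the other side hmg1, the gene of HMG-CoA reductase in sterol synthesis, had ratios of 1.05 and 1.00, nup211, a nuclear pore gene, 1.10 and 1.23, and ent1 1.02 and 1.11. For rsm1, the third gene on the side of urk1, they were 1.25 and 1.30. The ratios of the 5 named neighbours thus ran from 0.997 to 1.25 in wt. ppk33 was chosen for its rise, and 99.8% of all targets, these 5 among them, had a lower wt ratio. Of the 6 neighbours of mug114, 0 carry a name, and they were not analysed here. In the RefSeq annotation mug114 overlaps 1 non-coding transcript, SPNCRNA.200, and ppk33 overlaps 2, SPNCRNA.7416 and SPNCRNA.1205. Which strand the labelled material stood for is not given in the sources used here, so signal from a gene and from a transcript that overlaps its probes cannot be told apart.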

How the data were processed

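Total RNA was labelled with Cy3 and hybridised to the S. pombe 72K array by Roche NimbleGen. The authors deposited the scanned intensity of each probe, as NimbleScan 2.4.31 extracted it, linear and neither background-corrected nor normalised. They also deposited normalised intensity values, 2 for each target. The submitters' processing notes name RMA, and the scaling between arrays is not given in the sources used here. The rows of these values are numbered. Taken in the order of the targets they equal all 1694 targets held of the study's table of all genes, and the 4 entries of mug114 and ppk33 in its lists of induced genes. The column medians are 5447 and 5379 in normal oxygen and 5440 and 5726 in hypoxia, for wt and Ofd2Δ in turn, and which value belongs to which block of the probe files is unknown.

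Samples were grouped from their titles. The RMA convolution background was fitted on gene and control spots of each array, as gene spots alone misplace its mode. The 69954 gene spots were then brought to common quantiles, log2 values were reduced to 1 level per target and block by median polish, and the ratio is the mean of the 2 block ratios. The study's limits of 2-fold, and of 1.5-fold between strains, were used. No test was made, as each condition has 1 array, and signal over background limits the precision. Of the targets, 1647 have a usable systematic name in the supplementary tables, 1543 of these were found in the RefSeq table (assembly ASM294v3, used for names and gene order only) and 1301 have a symbol. The members and lists were chosen with earlier results of these data known. Genes named in the text are the members, their named neighbours, the 3 nearest profiles, list members past 2-fold or at the ends of a list, and induced genes without the study's mark; others were named to show a list's content after their values were seen. The lists are ppk and mug genes, AGC kinases, MAP kinase and TOR pathway kinases, stress response genes, and meiosis and sporulation genes. No sequences of these genes or probes were used here. Alternatives to each step were run. Quantile normalisation, median polish and the wt ratio were tested on simulated arrays with 200 changed targets. The background correction was not part of that simulation. Python 3.11.15, numpy 2.4.6, pandas 2.3.3, matplotlib 3.10.9, and R 4.3.3 with limma 3.58.1 were used.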

Additional observations from a re-analysis of the deposited data

How the results depend on the processing

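No paired analysis was possible because each condition has 1 array. A ratio of mug114 or ppk33 was taken as moved when it changed by more than the SD of its spots or crossed the study's limit, and 54 of 62 alternative ratios were not. A count was taken as moved when it changed by more than 1.5 times, and 54 of 78 alternative counts were not. All ratios of mug114 stayed on their side of 2-fold. Its strain difference crossed 1.5-fold, at 1.504, only when the probe at base 280 was left out (1.23 to 1.504 over the probes). The wt ratio of ppk33 fell below 2-fold without background correction (1.88), with normexp (1.92), with median scaling (1.94) and when 1 probe was left out (1.97 to 2.11). Its Ofd2Δ ratio passed 2-fold with median scaling (2.35) and in the deposited value table (2.12), and median scaling moved its strain difference from 0.857 to 1.21. That difference was 1.02 in the deposited value table, a change of direction that lay within the SD and so counted as not moved. Quantile normalisation of the 3 arrays of 1 scan occasion, added after seeing the data, gave 5.05 for mug114 and 2.02 for ppk33 in wt.

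Over all targets, the number at least 2-fold higher in wt was 8, and it was 4 without background correction, 5 with normexp, 5 with median scaling, 25 in the value table and 3 without the 1249 targets of lowest level. Of the 25, 19 carry the study's mark, and 1 of these passed 2-fold in wt from the probe files, against 4 of the 6 without it. In the Ofd2Δ strain the number was 22, and it was 14 without background correction, 122 with median scaling and 9 without these 1249. Without them, 11 in place of 32 targets were 2-fold lower in wt and 21 in place of 50 in the Ofd2Δ strain. Of the named ppk genes, 0 in place of 1 were higher in wt without background correction, with normexp, with median scaling and without these 1249, and 1 in place of 0 in the Ofd2Δ strain with median scaling and in the value table. Of the named mug genes, 3 in place of 1 were higher in the Ofd2Δ strain with median scaling. The 1 mug gene that was 2-fold lower gave 0 without background correction and without these 1249 in both strains, and 0 with median scaling, 2 with the median of spot ratios and 2 in the value table in the Ofd2Δ strain. The cause of these changes was not tested.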

Other observations

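Of 20 genes of the general stress response, 6 carry a name, and 0 of them were at least 2-fold higher in hypoxia in either strain, near the 0.160% of all targets in wt and the 0.440% in the Ofd2Δ strain. The median of their ratios was 0.922 in wt, and that in the Ofd2Δ strain 1.11, against 1.02 for all targets in each. The transcription factor gene atf1 had ratios of 0.878 in wt and 1.07 in the Ofd2Δ strain, and ntp1, which encodes the neutral trehalase, 0.934 and 1.01. The sulfiredoxin gene srx1 was at least 2-fold lower, with 0.486 and 0.419, as were 0.640% of all targets in wt and 1.00% in the Ofd2Δ strain. In the deposited value table gpd1, the glycerol-3-phosphate dehydrogenase gene, stood at 2.03 and 2.07, against 1.16 and 1.14 from the probe files.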
